A study of Mus musculus with 800 samples.

Results

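Cadherins and protocadherins are membrane proteins whose extracellular repeats bind calcium and pair with cadherins on neighbouring cells. The 77 genes described here are the rows of the count table whose symbol begins with Cdh and a digit or with Pcdh, that lie outside chromosomes X and Y, and that had at least 100 reads summed over 800 labelled nuclei. They were chosen from 32285 genes. Of 92 rows with such a symbol, 2 were left out for lying on chromosome X and 13 for too few reads. The members held 467276 reads. In 27 of them the gene stands alone in the genome: 3 type I cadherins, 13 type II cadherins, 2 other cadherins (Cdh13 and Cdh16), 7 delta protocadherins and 2 other protocadherins (Pcdh15 and Pcdh20). The other 50 belong to the clustered protocadherins, 13 in the Pcdha, 18 in the Pcdhb and 19 in the Pcdhg cluster, where 1 gene symbol, Pcdha11, stood for a pair of gene identifiers that were kept apart.

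Classical cadherins (types I and II) hold cells together through catenins that link them to actin, and neurons of different types express different type II cadherins, which take part in sorting axons and choosing synaptic partners. Delta protocadherins adhere weakly and signal through their cytoplasmic tails. In each protocadherin cluster a cell switches on a few of many alternative promoters, so that single neurons carry different combinations on their surface, which serve self-recognition and self-avoidance of dendrites and axons.

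Each library came from 1 nucleus of a C57Bl/6J mouse brain, sorted by flow cytometry on SYFP2, a yellow fluorescent reporter held in the nucleus by its H2B fusion, and amplified by SMART-Seq v4, a full-length method for polyadenylated RNA with no molecular identifiers. The fluorescent protein was delivered by adeno-associated virus in the brain-penetrant PHP.eB capsid at 5e11 vector genomes per mouse, 3 to 4 weeks before collection, and each of 20 vectors carried its own enhancer or promoter and gave 40 labelled nuclei. The labels call every nucleus anterior lateral motor cortex, while the series' design text also names striatum and visual cortex. No animal is named, so the vector was taken as the sample, and p-values measure the spread between vectors.

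Nuclei had a median of 260170.5 counts (medians per vector 209113 to 314832.5), and 698 had the 1000 detected genes required here. Clustering without the members put 273 of them in a GABAergic-like, 161 in a striatal projection neuron-like, 108 in a glutamatergic-like, 106 in an astrocyte-like and 50 in an oligodendrocyte-like class. Against their cortical label, 38 of 100 runs of 8 consecutive title numbers held a striatal projection neuron-like nucleus, and the numbers of members called between classes and interneuron kinds are given with and without those runs where enough vectors remained. The 8 markers of striatal projection neurons summed to 5623 to 7759 CPM in the vectors' sums of that class and to at most 940 CPM in glutamatergic-like sums. Glial nuclei were poorer in genes than neuronal ones (median 1454 in astrocyte-like, 1139.5 in oligodendrocyte-like, 2652 to 3264.5 in the 3 neuronal classes) at similar total counts. Levels are counts-per-million (CPM) values of the reads summed over the nuclei of a class in a vector, given over vectors with at least 3 such nuclei (2 for the layer groups).

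The promoters of members with a large difference between glia and neurons are shown first. Of the 77 members, 19 had a promoter in the RefSeq table (GRCm38.p6, 22 start sites). The 4 sequences below belong to type II cadherins or Pcdh15 that were lower in astrocyte-like than in neuronal nuclei and that held a match to 1 of 4 motifs searched on both strands. The motifs were TAATTA (homeodomain), ACAAAG (Sox), GGGCGG (GC box) and CAGCTG (E-box). Each sequence has 300 bases of which the last 50 follow the start site, and capitals mark the match.
Pcdh15 (chr10:73821617-73821916, plus strand): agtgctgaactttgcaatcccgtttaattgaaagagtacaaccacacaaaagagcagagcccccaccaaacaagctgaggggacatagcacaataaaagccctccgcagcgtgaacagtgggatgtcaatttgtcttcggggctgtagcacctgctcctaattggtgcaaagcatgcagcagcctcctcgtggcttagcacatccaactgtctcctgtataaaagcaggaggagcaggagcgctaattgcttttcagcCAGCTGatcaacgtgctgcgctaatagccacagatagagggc
Cdh9 (chr15:16728665-16728964, plus strand): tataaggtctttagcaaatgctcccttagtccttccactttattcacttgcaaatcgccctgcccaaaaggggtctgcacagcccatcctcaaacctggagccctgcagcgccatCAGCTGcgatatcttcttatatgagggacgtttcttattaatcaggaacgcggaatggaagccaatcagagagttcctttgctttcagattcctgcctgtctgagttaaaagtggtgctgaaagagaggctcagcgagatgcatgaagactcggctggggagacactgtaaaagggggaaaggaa
Cdh12 (chr15:21111202-21111501, plus strand): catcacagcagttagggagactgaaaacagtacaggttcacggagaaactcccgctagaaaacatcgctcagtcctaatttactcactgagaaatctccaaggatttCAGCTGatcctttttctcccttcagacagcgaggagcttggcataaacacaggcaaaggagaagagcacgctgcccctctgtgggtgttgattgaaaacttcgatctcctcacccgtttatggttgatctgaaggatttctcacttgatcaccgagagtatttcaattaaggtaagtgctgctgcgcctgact
Cdh8 (chr8:99416422-99416721, minus strand): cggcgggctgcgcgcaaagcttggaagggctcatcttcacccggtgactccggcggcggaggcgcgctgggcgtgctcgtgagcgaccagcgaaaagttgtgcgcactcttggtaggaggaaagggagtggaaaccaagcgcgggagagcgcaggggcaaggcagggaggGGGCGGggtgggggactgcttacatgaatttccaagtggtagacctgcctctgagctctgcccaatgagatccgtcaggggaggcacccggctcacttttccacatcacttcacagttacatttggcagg

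CAGCTG was in the Pcdh15, Cdh9 and Cdh12 promoters, and GGGCGG was in that of Cdh8. No other of the 4 motifs was in these 4 windows. Among all 22 member promoters, CAGCTG was in 3, GGGCGG in 8, ACAAAG in 4 and TAATTA in 1. Among all 32851 promoters of the table the shares were 16.3%, 35.7%, 18.7% and 5.29%. The promoters of Cdh7 and Cdh18, which were also lower in astrocyte-like nuclei, held none of the 4. CG dinucleotides numbered 8 in the Pcdh15 and Cdh9 windows, 9 in Cdh12, 12 in Cdh18, 18 in Cdh7 and 21 in Cdh8, against a median of 7 over all promoters. The RefSeq starts of Pcdh15, Cdh12 and Cdh18 lie inside longer gene models of the annotation used for positions (GENCODE M21).

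Pcdh9, a delta protocadherin, was the highest member by CPM in 4 of the 5 classes. It was highest in oligodendrocyte-like nuclei at 1451 ± 473 CPM (SD, n = 7 vectors). It was next in order in glutamatergic-like nuclei at 585 ± 383 CPM (n = 12), then astrocyte-like at 404 ± 297 CPM (n = 9), GABAergic-like at 313 ± 222 CPM (n = 18) and striatal projection neuron-like at 199 ± 97.0 CPM (n = 14). The lowest oligodendrocyte-like vector, at 916 CPM, was below the highest glutamatergic-like one, at 1381 CPM, and the other neighbours in this order overlapped more widely. Striatal projection neuron-like nuclei were the exception, with Cdh8, a type II cadherin, highest at 300 ± 148 CPM (SD, n = 14), and Pcdh17 followed Pcdh9 there at 191 ± 150 CPM. In GABAergic-like nuclei Pcdh9 was followed by Cdh13, an atypical cadherin anchored to the membrane by lipid, at 298 ± 187 CPM and Pcdh15, a protocadherin known from the tip links of hair cells, at 198 ± 122 CPM (SD, n = 18). In glutamatergic-like nuclei the members after Pcdh9 were Pcdh7 at 198 ± 92.5 CPM and Cdh10 at 183 ± 118 CPM (SD, n = 12).

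**Figure D1:**
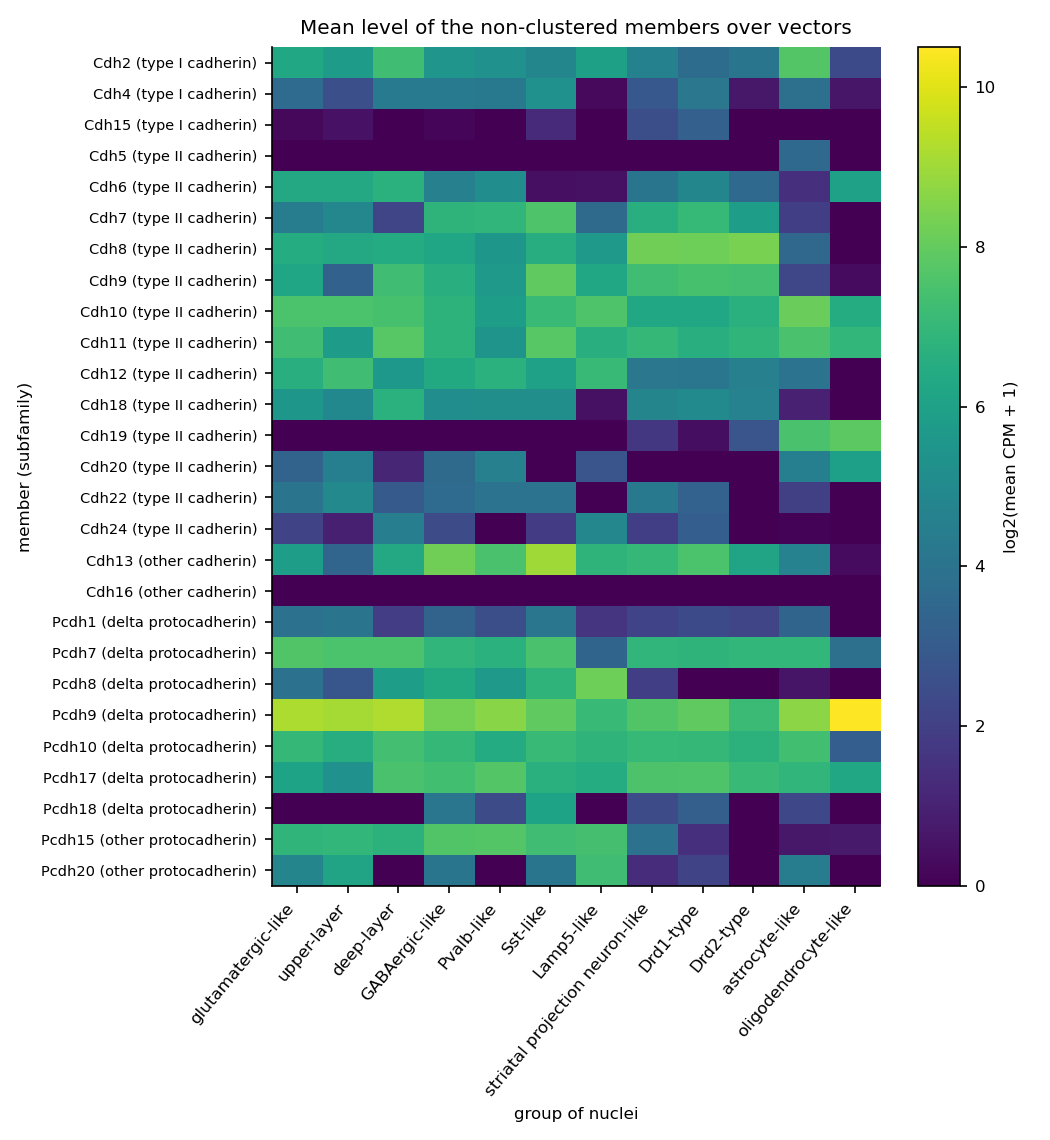
Mean level of the 27 members that are not clustered genes (vertical axis) in 5 cell classes, 3 interneuron kinds, 2 layer groups and 2 striatal types (horizontal axis), as log2(mean CPM + 1) over vectors. Pcdh9 is high in every column with its highest value in oligodendrocyte-like nuclei, and Cdh19 has its highest values in the astrocyte-like and oligodendrocyte-like columns.

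The highest of the 5 class means was in GABAergic-like nuclei for 27 of the 77 members, in striatal projection neuron-like for 23, in glutamatergic-like for 12, in oligodendrocyte-like for 8 and in astrocyte-like for 7. The same count over all genes is not given here, so these numbers show no trait of the family. Of the 50 clustered members, 48 had a read in at most 10% of nuclei, so a few nuclei can set the highest class. Summed over genes, the Pcdha cluster stood at 62.9 ± 41.8 CPM in GABAergic-like (n = 18), 62.9 ± 53.4 CPM in striatal projection neuron-like (n = 14) and 16.7 ± 16.3 CPM in glutamatergic-like nuclei (n = 12), and at 0.0697 and 0.122 CPM in astrocyte-like and oligodendrocyte-like nuclei. The highest astrocyte-like vector, at 0.627 CPM, was below the lowest GABAergic-like one, at 1.29 CPM, and the lowest striatal projection neuron-like one, at 4.74 CPM, but the lowest glutamatergic-like vector was at 0. Per kilobase of exon, the leaders of Sst-like interneurons changed order: Cdh9 stood at 68.7, Cdh13 at 45.8 and Pcdh9 at 36.6 CPM per kilobase, whereas by CPM Cdh13 was highest. The treatment of introns in the counts is not given, so this scale may not make genes comparable.

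Of the comparisons between classes, kinds or layers, 6 had enough vectors for a paired test (edgeR's quasi-likelihood test on sums per vector and class, vector as a block, Benjamini-Hochberg adjustment over all genes, threshold 0.05). Of the 77 members, 48 were tested in none of the 6 because their counts were too low for the filter, and 42 of those were clustered genes. Members that passed can have done so through 1 of the classes compared, so the counts below are descriptions. Between GABAergic-like and glutamatergic-like nuclei (12 vectors), 21 members were tested and 1 was higher in GABAergic-like, with none lower, where 1.69% of all genes tested were higher and 1.48% lower (3.16% in either direction). Between striatal projection neuron-like and GABAergic-like nuclei (12 vectors), 20 were tested and 3 were lower, with none higher, where 3.19% of genes were higher and 5.34% lower (8.53% in all). Between astrocyte-like nuclei and all neuronal nuclei (9 vectors), 22 were tested, 2 were higher and 7 were lower, where 17.6% of genes differed, 3.88% higher and 13.7% lower. The median log2 difference over the tested members and over all genes tested was -0.12 and 0.34 in the first comparison, -0.62 and -0.62 in the next, and -1.02 and -1.82 in the last, so single differences between astrocyte-like and neuronal nuclei lie on a shifted scale. DESeq2 had a lighter filter on low counts and gave an adjusted p for 12016, 13073 and 14554 genes in these 3 comparisons. It called 17.3%, 28.1% and 42.0% of them, and 9, 14 and 24 of the 77 members. How many members it tested is not given here. The comparisons share vectors and the GABAergic-like nuclei.

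Between astrocyte-like and neuronal nuclei, 1 of 2 tested type I cadherins was higher. Of 9 tested type II cadherins, 1 was higher and 5 were lower, and Cdh13 and Pcdh15 were lower as well. Over all genes tested 3.88% were higher and 13.7% lower. Summed over genes, type II cadherins stood at 701 ± 202 CPM in astrocyte-like nuclei (SD, n = 9) and at means of 667 to 833 CPM in the 3 neuronal classes. Cdh19 (chromosome 1, 110888326 to 110977584, minus strand, mm10), a type II cadherin known from glia of the peripheral nerve, stood at 177 ± 120 CPM over the 9 astrocyte-like sums (lowest 2.90, median 156, highest 398). All 9 neuronal sums had 0 reads of it. The groups did not overlap, although the lowest astrocyte-like value, in vector AiE0445h_3xC2, was far under the rest. Against a floor of 3 counts over the pooled neuronal nuclei, Cdh19 was at least 3584-fold higher in astrocyte-like nuclei (edgeR quasi-likelihood adjusted p = 6.01e-05). It was also high in oligodendrocyte-like nuclei, at 231 ± 131 CPM (SD, n = 7).

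Cdh2 (N-cadherin, a type I cadherin on chromosome 18) was the other member that rose. It stood at 206 ± 138 CPM in astrocyte-like nuclei (lowest 67.9, median 149, highest 490) and 46.5 ± 30.3 CPM in neuronal nuclei (lowest 10.5, median 35.5, highest 103). It was higher in 9 of 9 vectors, with overlap between the groups. The log2 difference was 2.27 ± 0.71 (SE) with an adjusted p of 0.0295 by edgeR. The call was lost when AiE0390m, AiE0445h_3xC2, AiE0450h, AiE0743m_3xC2, CMV or DLX2.0 was left out (adjusted p up to 0.0789).

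The type II cadherins Cdh7, Cdh8, Cdh9, Cdh12 and Cdh18 fell. Cdh9 (chromosome 15, 16728756 to 16857094, plus strand) stood at 3.66 ± 10.97 CPM in astrocyte-like nuclei (lowest and median 0, highest 32.9) and 107 ± 45.7 CPM in neuronal nuclei (lowest 59.4, median 98.9, highest 215). The groups did not overlap, and the level in pooled reads was 111-fold lower in astrocyte-like nuclei (edgeR log2 difference -10.78 ± 1.87 SE, adjusted p = 0.00039). Cdh8 (chromosome 8, 99024471 to 99416471, minus strand) stood at 10.5 ± 26.3 CPM (median 0, highest 79.6) against 110 ± 48.2 CPM (lowest 47.4, median 127, highest 173). It was lower in 9 of 9 vectors with overlap between groups, and the pooled ratio was 19.7-fold (adjusted p = 0.0043 by edgeR). An annotated antisense gene shares exon bases with each of Cdh8 and Cdh9, and the kit does not mark strand, so reads of the partners cannot be told apart. Cdh12, described next, likewise shares exon bases with the annotated gene Gm49685. Pcdh7, Pcdh8 and Pcdh10, named elsewhere here, share exon bases with annotated genes on the opposite strand.

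Cdh7 (chromosome 1, 109982431 to 110140157, plus strand) stood at 2.92 ± 7.04 CPM in astrocyte-like nuclei and 74.1 ± 37.3 CPM in neuronal nuclei, lower in 9 of 9 vectors (56.7-fold in pooled reads, edgeR adjusted p = 0.00669). Cdh18 (chromosome 15, 22549022 to 23474418, plus strand) stood at 0.944 ± 2.83 CPM against 33.9 ± 35.1 CPM and was lower in 8 vectors and tied at 0 in 1 (165-fold, adjusted p = 0.00544 by edgeR). Cdh12 (chromosome 15, 20449265 to 21589533, plus strand) was the least separated, at 15.01 ± 31.4 CPM against 61.9 ± 43.2 CPM, with AiE0450h the 1 vector of 9 that went the other way (5.52-fold, adjusted p = 0.0226 by edgeR). Its call was lost when AiE0445h_3xC2, AiE0600m, AiE0743m_3xC2, CMV or DLX2.0 was left out (adjusted p up to 0.0584). Not every type II cadherin was low in astrocyte-like nuclei: Cdh10 stood there at 273 ± 81.6 CPM (lowest 165, SD, n = 9), its highest mean among the 5 classes, and its difference from neuronal nuclei did not pass (adjusted p = 0.101 by edgeR).

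Cdh13 and Pcdh15 fell as well. Cdh13 stood at 24.1 ± 48.6 CPM in astrocyte-like nuclei (median 0, highest 133) and 217 ± 105 CPM in neuronal nuclei (lowest 3.87, median 211, highest 347), lower in 9 of 9 vectors with overlap between groups (12.8-fold in pooled reads, edgeR adjusted p = 0.00224). Pcdh15 (chromosome 10, 73099342 to 74649737, plus strand) had 5 reads in all 101 astrocyte-like nuclei of these vectors and 9282 in the 220 neuronal nuclei. Its levels were 0.59 ± 1.77 CPM and 148 ± 73.5 CPM, with no overlap (983-fold, adjusted p = 5.95e-05 by edgeR). For the lower members, edgeR's fitted log2 differences are larger in size than the log2 of these pooled folds. With each vector left out in turn they ran from -8.73 to -7.14 for Cdh12 and from -9.62 to -7.73 for Cdh13. In other settings they were as small in size as -1.67 for Cdh12, -2.78 for Cdh13 and -2.93 for Cdh8. The call was lost in 4, 2 and 3 of 10 such settings. The cause was not tested.

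**Figure D2:**
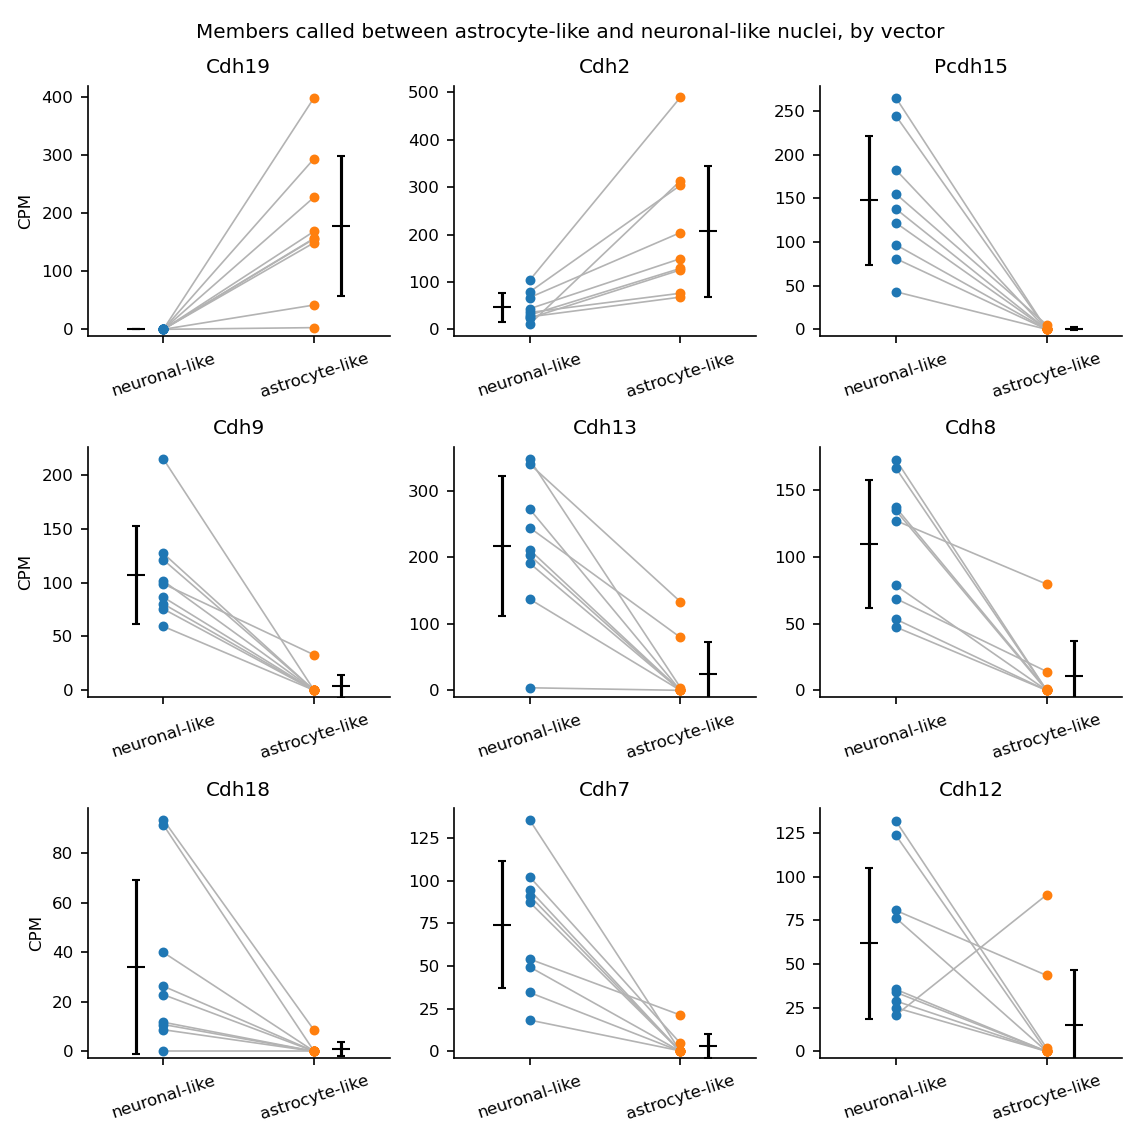
CPM (vertical axis) of the 9 members that differed between astrocyte-like and neuronal nuclei, with a point per vector and class, a line joining the classes of a vector, and bars for mean ± SD over 9 vectors. Cdh19 and Cdh2 lie higher on the astrocyte-like side, and the other 7 lie near 0 there in most vectors.

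Markers of other cells were present in some astrocyte-like sums. In vector AiE0401h, with 4 astrocyte-like nuclei, the 6 endothelial and mural markers summed to 5633 CPM, 2 nuclei exceeded 1000 CPM, and Cdh5, the cadherin of vascular endothelium, stood at 75.4 CPM. In AiE0450h these markers summed to 1629 CPM and Cdh5 stood at 24.1 CPM, whereas in the other 7 vectors the markers summed to at most 83.8 CPM and Cdh5 had 0 reads. The 8 markers of striatal projection neurons ranged from 0 to 1393 CPM over astrocyte-like sums, highest again in AiE0401h, whose sum was also the highest for Cdh7, Cdh8, Cdh9, Cdh18 and Pcdh15. In AiE0450h, AiE0600m and AiE0743m_3xC2 the striatal markers summed to 422, 406 and 386 CPM, and those members had 0 CPM. Cortical neuron markers summed to 183 CPM in AiE0401h and 203 CPM in AiE0450h, and to at most 124 CPM in the other vectors. The 6 oligodendrocyte markers summed to 280 to 3239 CPM over astrocyte-like sums (median 1819), against medians of 144 to 528 CPM in the neuronal classes. Cdh19 was also high in oligodendrocyte-like nuclei, and doublets were not called. The part of all these markers in the results was not tested. Without AiE0401h 8 members were called, and without runs holding a striatal projection neuron-like nucleus 3 were (Cdh9, Cdh12 and Cdh13), while Cdh7, Cdh18, Cdh19 and Pcdh15 did not pass the filter on low counts there. Within library series S40326 alone 5 were called (Cdh8, Cdh9, Cdh13, Cdh19 and Pcdh15), and within S40324 none (lowest adjusted p among the 9 = 0.0761, with the same direction in all 8 that were tested). The share of all genes called in these settings is not given here.

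Among neurons, Cdh13 was the member that separated GABAergic-like from glutamatergic-like nuclei. Cdh13 (chromosome 8, 118283733 to 119324921, plus strand) stood at 299 ± 213 CPM in GABAergic-like nuclei (lowest 17.5, median 335, highest 672) and 58.1 ± 68.0 CPM in glutamatergic-like nuclei (lowest 0, median 34.2, highest 239). It was higher in 11 of 12 vectors, the exception being AiE0447h, and the groups overlapped. The log2 difference was 2.71 ± 0.73 (SE) with an adjusted p of 0.0359 by edgeR, and pooled reads were 9.10-fold higher. The call was lost when AiE0078h, AiE0140h, AiE0401h, AiE0450h, AiE0475m, AiE0743m_3xC2 or hSyn1 was left out (adjusted p up to 0.0965). Without runs holding a striatal projection neuron-like nucleus the log2 difference was 5.39 (adjusted p = 0.163), and within series S40326 it was 3.02 (adjusted p = 0.442).

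Striatal projection neuron-like nuclei had less Pcdh15, Cdh12 and Pcdhgc4 than GABAergic-like nuclei. Pcdh15 stood at 16.9 ± 29.7 CPM in striatal projection neuron-like nuclei (lowest and median 0, highest 76.4) and 224 ± 128 CPM in GABAergic-like nuclei (lowest 45.7, median 210, highest 540). It was lower in 11 of 12 vectors, with overlap at the ends (11.4-fold in pooled reads, edgeR log2 difference -7.98 ± 1.62 SE, adjusted p = 0.00222). Cdh12 stood at 15.9 ± 19.4 CPM (lowest 0, median 5.05, highest 56.95) against 88.4 ± 50.7 CPM (lowest 27.7, median 74.9, highest 186). It was lower in 12 of 12 vectors (5.61-fold, adjusted p = 0.0436 by edgeR), and the call was lost when AiE0140h, AiE0387m, AiE0391h, AiE0401h, AiE0445h_3xC2, AiE0447h, AiE0450h or AiE0682h was left out (adjusted p up to 0.0819).

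Pcdhgc4, a clustered gene whose promoter lies at the end of the Pcdhg cluster and which belongs to the C-type protocadherins, stood at 11.997 ± 37.4 CPM (lowest and median 0, highest 130) in striatal projection neuron-like nuclei and 46.9 ± 50.0 CPM (lowest 0, median 27.3, highest 164) in GABAergic-like nuclei. It was lower in 10 vectors, tied in 1 and higher in 1 (10.4-fold, adjusted p = 0.0150 by edgeR), and it shares its constant exons with the other Pcdhg genes. Without the vector as a block its log2 difference was -2.12 (adjusted p = 0.457), and those of Cdh12 and Pcdh15 were -2.39 (adjusted p = 0.129) and -3.59 (adjusted p = 0.0188). Within series S40326 none of the 3 passed (adjusted p = 0.0774 for Pcdh15, 0.262 for Cdh12 and 0.443 for Pcdhgc4). With the block, the fitted log2 differences of these 3 are larger in size than the log2 ratios of their mean CPM, and the cause was not tested.

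**Figure D3:**
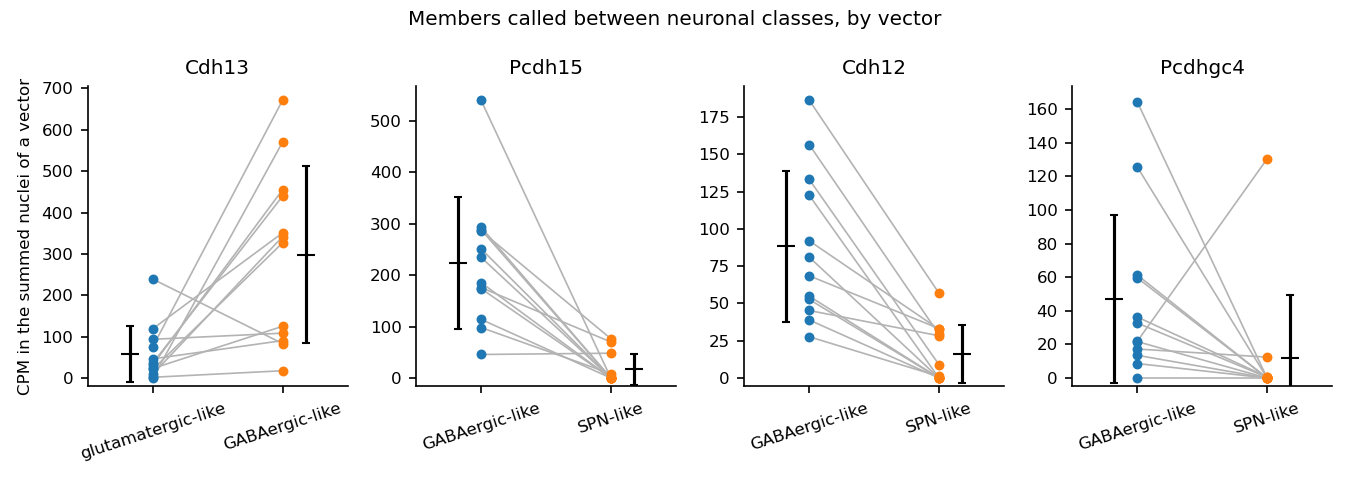
CPM (vertical axis) of the 4 member differences called between neuronal classes, with a point per vector and class, a line joining the classes of a vector, and bars for mean ± SD over 12 vectors. Cdh13 is higher in GABAergic-like than glutamatergic-like nuclei in 11 of 12 vectors, and Pcdh15, Cdh12 and Pcdhgc4 are mostly lower in striatal projection neuron-like (SPN) than GABAergic-like nuclei.

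For astrocyte-like against oligodendrocyte-like nuclei only vector DLX2.0 had at least 3 nuclei of both (9 and 4), so the paired design gave values with no test. A fit over all 9 astrocyte-like and 7 oligodendrocyte-like sums without pairing, chosen after the data were seen, tested 10 members and called 1, where 9.92% of genes differed. Cdh2 was that member, at 206 ± 138 CPM in astrocyte-like nuclei (lowest 67.9) and 4.20 ± 7.87 CPM in oligodendrocyte-like nuclei (highest 21.2), with no overlap (log2 difference 5.65 ± 1.47 SE, adjusted p = 0.00874 by edgeR). With a minimum of 500 genes 3 vectors held both classes, and the paired test called 0 of 10 members, where 2.14% of genes differed. Pcdh10, at 159 ± 139 CPM against 7.76 ± 20.3 CPM, did not pass (adjusted p = 0.0526). Cdh19 and Pcdh9 had log2 differences of 0.34 ± 0.86 and -1.29 ± 0.57 (SE), with adjusted p of 0.961 and 0.227.

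No member passed between interneuron kinds, layers or striatal types. In Sst-like against Pvalb-like interneurons (11 vectors), 18 members were tested and 0 were called, where 0.283% of genes were. At an unadjusted p under 0.05 edgeR gave 2 (6.06% of genes), and DESeq2 called 5 (9.2% of genes). Without runs holding a striatal projection neuron-like nucleus, edgeR again called 0. Cdh13 stood at 515 ± 259 CPM in Sst-like nuclei (lowest 20.9, median 552, highest 876, n = 11) and 179 ± 142 CPM in Pvalb-like nuclei (lowest 0, median 159, highest 504, n = 16), and was higher in 9 of 11 vectors with both kinds (adjusted p = 0.411 by edgeR). Cdh9 stood at 243 ± 158 CPM in Sst-like and 48.4 ± 42.3 CPM in Pvalb-like nuclei and was higher in 10 of 11 vectors (adjusted p = 0.639). Lamp5-like nuclei, in 4 vectors, were led by Pcdh8 at 289 ± 379 CPM, which had reads in 3 of 26 nuclei. Vip headed the genes most raised in that cluster, with Lamp5 also among them, so Vip-type nuclei were not kept apart from it.

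Between deep-layer and upper-layer glutamatergic nuclei (5 vectors), 14 members were tested and 0 were called, where 0.0462% of genes were. At an unadjusted p under 0.05 edgeR gave 1 member (2.62% of genes), and DESeq2 called 0 (1.39% of genes). Layers here are ranges of a marker score, with 17 of 108 nuclei between them and 7 just past the limit. In AiE0078h, AiE0401h, CMV, hI56i and hSyn1, in that order, Pcdh17 stood at 337, 565, 102, 62.6 and 202 CPM in deep-layer nuclei (2 nuclei each in AiE0078h, AiE0401h and hI56i) and at 27.6, 50.2, 21.9, 0 and 81.4 CPM in upper-layer nuclei. Cdh12 stood at 0, 0, 137, 99.6 and 23.7 CPM in deep-layer nuclei and at 139, 220, 271, 315 and 93.6 CPM in upper-layer nuclei of those vectors. Cdh11 stood at 250, 201, 25.5, 117 and 261 CPM in deep-layer nuclei and at 9.54, 161, 0.625, 71.0 and 105 CPM in upper-layer nuclei. These were the 3 of the 14 tested members with 1 direction in 5 of 5 vectors, Pcdh17 and Cdh11 higher in the deep-layer and Cdh12 in the upper-layer sums. They are named for that after their values were seen, the groups overlapped, and the adjusted p was 1 for each (edgeR). The share of all tested genes with 1 direction in 5 of 5 vectors is not given here. Between Drd2-type and Drd1-type striatal projection neurons (7 vectors), 13 members were tested and 0 were called, where 0.119% of genes were, with 0 at an unadjusted p under 0.05 (2.64% of genes) and 0 by DESeq2 (3.78% of genes). Cdh8 led in both types, at 336 ± 209 CPM in Drd2-type and 292 ± 153 CPM in Drd1-type nuclei (SD, n = 10 each).

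Nearly all clustered protocadherins were read in few nuclei. Of the 50 clustered members, 48 had a read in at most 10% of the 800 nuclei, whereas 17 of the 27 other members had a read in at least 10%. Of the clustered members, 35 share exon bases with another annotated gene, and how such reads were assigned is not given in the sources used here. Where a clustered gene had any read, its median per nucleus was 25 reads in the Pcdha cluster, 49.25 in the Pcdhb cluster and 20 in the Pcdhg cluster, taken as the median over genes, which individually ran from 2 to 185. The same median was 20 for type I cadherins, 31 for type II cadherins and 58 for delta protocadherins. Pcdhb3, for example, had 1915 reads in 7 nuclei, 61.7% of them in 1 nucleus. Pcdh9 was read in 453 nuclei, with a median of 131 reads. Among members outside the clusters Cdh16, a cadherin of kidney epithelium, had all of its 132 reads in 1 nucleus.

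**Figure D4:**
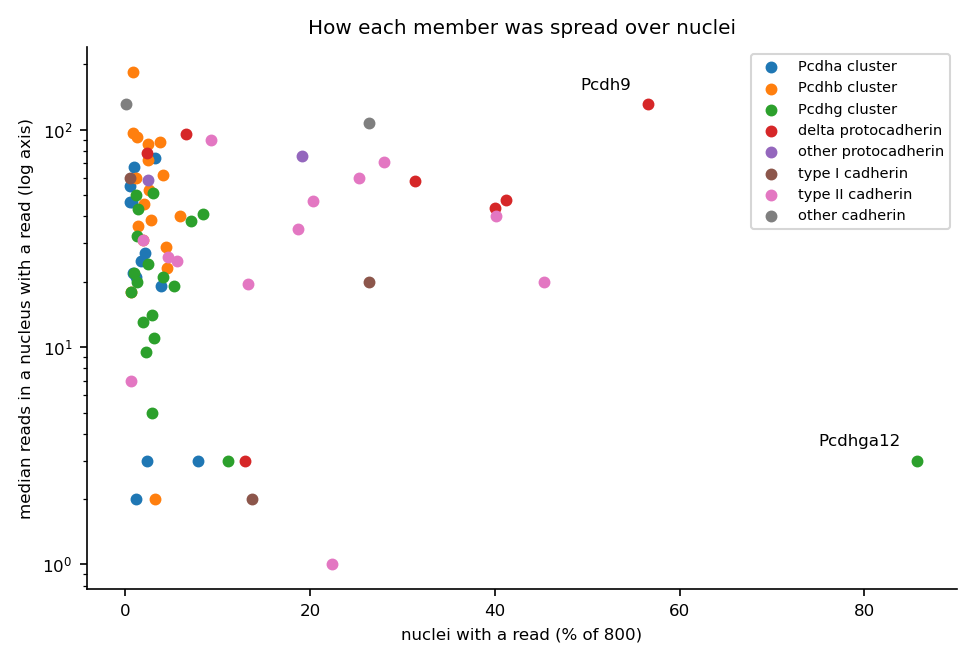
Share of the 800 nuclei with a read (horizontal axis, percent) against the median reads per nucleus with a read (vertical axis, log scale) for the 77 members, coloured by subfamily. Clustered genes sit at the left with Pcdhga12 far to the right at few reads, and Pcdh9 lies at 56.6% of nuclei.

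Pcdhga12 differed from the other clustered genes. It had a read in 686 of 800 nuclei (85.8%, exact Clopper-Pearson 95% interval 83.1 to 88.1, counting error only), with a median of 3 reads, and 61 nuclei with at least 20 reads held 69.9% of its reads. The 5 classes ran from 79.5% of striatal projection neuron-like (interval 72.4 to 85.5) to 89.8% of glutamatergic-like nuclei (82.5 to 94.8). The 102 nuclei under the gene minimum stood at 97.1% (91.6 to 99.4). Median depths were 241227 to 300958.5 counts, and nuclei were not thinned for these shares. The intervals take pooled nuclei as independent and leave out the spread between vectors, so they cannot compare classes. A few reads of Pcdhga12 were thus present in most nuclei of every class, with the highest share in the nuclei under the gene minimum. The part of the number of genes in this share was not tested. Glutamatergic-like nuclei, with a median of 3264.5 genes, stood at 89.8%. Oligodendrocyte-like nuclei, with a median of 1139.5 genes, stood at 88.0% (75.7 to 95.5). Counts of clustered genes are also given without Pcdhga12.

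To compare how many clustered genes a nucleus reads out, each nucleus was thinned to 150000 counts, which left out 35 shallower nuclei of the 5 classes. Astrocyte-like nuclei had 1.28 ± 0.80 clustered genes with a read and neuronal nuclei 2.37 ± 0.44 (SD over 9 vectors). The mean paired difference was -1.09 ± 0.96 (SD), lower in 8 of 9 vectors (exact two-sided sign-flip permutation test, p = 0.0156, adjusted over 3 comparisons 0.0469). Without AiE0401h, the exception, it was -1.36 (adjusted p = 0.0234). Without Pcdhga12 it was -0.957 (adjusted p = 0.0820). Leaving out AiE0391h, AiE0445h_3xC2, AiE0450h or AiE0743m_3xC2 gave an adjusted p over 0.05 (up to 0.0938). The adjustment then covered only the comparisons that held the vector left out, a number that varied. At an unadjusted permutation p of 0.03125 the call was lost without AiE0391h, AiE0445h_3xC2 or AiE0450h and kept without AiE0390m, AiE0600m or DLX2.0. Losing the call is therefore no measure of the weight of those vectors. Genes per nucleus in general were lower in astrocyte-like nuclei too, as given above, and the part of that in the result was not tested.

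Between neuronal classes the numbers were closer. GABAergic-like nuclei had 2.61 ± 0.96 and glutamatergic-like 2.16 ± 0.82 clustered genes (difference 0.45 ± 1.35 SD, higher in 8 of 12 vectors, exact permutation p = 0.274, adjusted 0.411). Striatal projection neuron-like nuclei had 2.53 ± 0.61 and GABAergic-like 2.72 ± 0.94 in the vectors with both (difference -0.190 ± 1.12 SD, 6 of 12 higher, exact permutation p = 0.588). Leaving out Pcdhga12, no clustered gene was read in 19.5% of striatal projection neuron-like, 21.9% of GABAergic-like, 35.6% of glutamatergic-like, 63.5% of astrocyte-like and 67.3% of oligodendrocyte-like nuclei at that depth. One astrocyte-like nucleus had 14 such genes, against at most 8 in any neuronal nucleus.

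**Figure D5:**
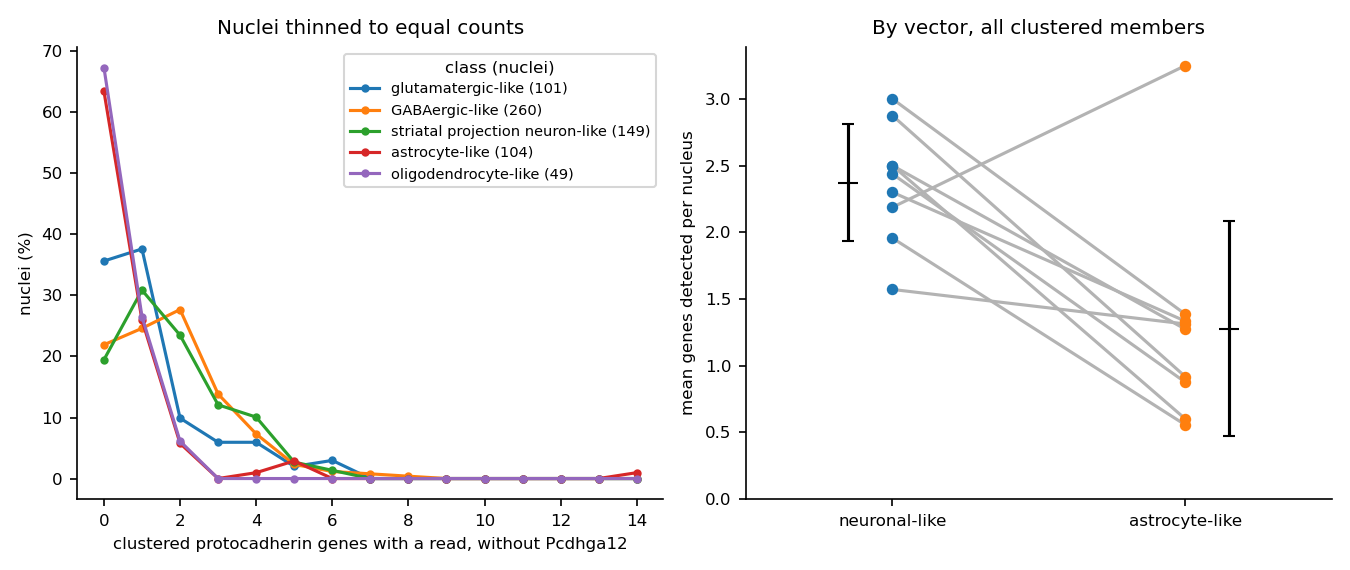
Left, percent of thinned nuclei (vertical axis) by number of clustered genes with a read other than Pcdhga12 (horizontal axis) in 5 classes. Right, mean number of clustered genes with a read per nucleus (vertical axis) in neuronal and astrocyte-like nuclei of 9 vectors, with lines joining a vector and bars for mean ± SD. Glial classes have most nuclei at 0, and astrocyte-like means lie lower in 8 of 9 vectors.

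Genes that work with cadherins were followed in 4 lists. Of catenins and junction partners (15 genes), none of 10 tested passed between GABAergic-like and glutamatergic-like nuclei. Magi1, a scaffold of cell junctions, was lower in striatal projection neuron-like than GABAergic-like nuclei (25.4 against 132 CPM, log2 difference -2.65, edgeR adjusted p = 0.0330, 1 of 11 tested), a call lost when AiE0078h, AiE0140h, AiE0445h_3xC2, AiE0450h or AiE0682h was left out (adjusted p up to 0.0722). Nectin2, an adhesion molecule of the immunoglobulin family, was the 1 of 13 called in astrocyte-like against neuronal nuclei (edgeR adjusted p = 0.0492). Its levels were close, at 9.51 against 11.5 CPM, lower in 7 of 9 vectors. The fitted log2 difference was far larger, from -7.15 to -5.61 with each vector left out in turn, and the cause was not tested. The Nectin2 call was kept with 2 of the 9 vectors left out in turn. It was lost without AiE0391h, AiE0401h, AiE0450h, AiE0600m, AiE0743m_3xC2, CMV or DLX2.0 (adjusted p up to 0.125). Of other superfamily members (18 genes), Clstn2, a calsyntenin, was lower in striatal projection neuron-like than GABAergic-like nuclei (9.78 against 137 CPM, adjusted p = 0.0272, 1 of 7 tested by edgeR). That call was lost without AiE0078h, AiE0391h, AiE0401h, AiE0447h, AiE0450h, AiE0475m or AiE0682h (adjusted p up to 0.0637). Clstn2, Clstn3 and Celsr3, a cadherin of axon guidance, were lower in astrocyte-like than neuronal nuclei (3.29 against 71.3, 17.6 against 202 and 5.51 against 105 CPM, 3 of 7 tested by edgeR).

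Of protocadherin signalling partners (14 genes), Ptk2b, the kinase Pyk2 that binds protocadherin tails, was lower in GABAergic-like than glutamatergic-like nuclei (11.4 against 239 CPM, log2 difference -8.53, adjusted p = 0.000154 by edgeR) and was the 1 of 13 called. Ptk2b was higher in striatal projection neuron-like than GABAergic-like nuclei (511 against 10.6 CPM, adjusted p = 2.2e-05), as was Ank3, an ankyrin (917 against 535 CPM, adjusted p = 0.0138), 2 of 13 tested by edgeR. Ank3 was lower, and so were Cyfip2 and Abi2, which encode subunits of the WAVE complex that binds delta protocadherin tails, in astrocyte-like than neuronal nuclei (62.1 against 657, 52.7 against 283 and 43.7 against 252 CPM, 3 of 14 tested). The call for Abi2 was lost without AiE0391h, AiE0445h_3xC2, AiE0450h or AiE0743m_3xC2 (adjusted p up to 0.0684 by edgeR), and the other calls of this list were kept with each vector left out in turn. Of clustered protocadherin regulators, such as CTCF and cohesin subunits (12 genes), none of 11 tested passed in any of these 3 comparisons by edgeR. No gene of the 4 lists was called between interneuron kinds, layers or striatal types.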

How the data were processed

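Single nuclei were profiled by SMART-Seq v4 from brains given 20 adeno-associated vectors. The authors deposited whole-number read counts per gene and nucleus, not normalized, identified by Ensembl ID. Per the submitters' processing notes, STAR 2.7.2a and mm10 were used. The annotation, counting rule and treatment of introns: not given in the sources used here. Of the table's columns, 1701 carry no label and were not used. Reads are not molecules and are unstranded. Symbols came from the gene name table and positions and exon lengths from GENCODE M21.

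Nuclei with at least 1000 genes were clustered (scanpy 1.11.5, leidenalg 0.10.2, 2000 variable genes, 30 components, resolution 1) with the members and the list genes held out, and classes were named from markers. Clusters of GABAergic-like nuclei were named Pvalb-like, Sst-like or Lamp5-like by a rule settled after the clusters were seen, and 31 nuclei stayed unnamed. No cluster was named for Vip, although Vip headed the genes most raised in the Lamp5-like cluster. A Pvalb-like cluster of 24 nuclei and an Sst-like one of 58 had 0 markers of their kind among their most raised genes. Layers and striatal types are differences of marker scores over 0.5. Doublets were not called. Counts were summed per vector and class and tested with edgeR 4.0.16 (TMM, filterByExpr, vector as block, Benjamini-Hochberg, 0.05). The pairing is by construction: both sums of a vector share its label. DESeq2 1.42.0 and other settings were alternatives. The tests were checked on simulated counts: no recovered change had the wrong sign, but most changes of the smaller size were missed, and in astrocyte-like against neuronal nuclei most of the larger ones too, so an uncalled member is not shown to be unchanged. CPM used the summed counts of each class.

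The text names the called members (at most 10 per direction), the 3 highest per group and the called list genes (at most 4 per list). Members and lists were chosen with earlier results of these data known. The motifs and the setting without Pcdhga12 were chosen after the data were seen. Vector medians ran from 209113 to 314832.5 counts per nucleus.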

Additional observations from a re-analysis of the deposited data

Results flagged for a closer look

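Of 37 groups of 4 to 10 vectors examined for a vector far from the others, 9 had one. The rule (Dixon's ratio of gap to range) assumes normally spread values. A group with 0 in all vectors but 1 is marked by construction, as for Cdh9, Cdh18 and Pcdh15 in astrocyte-like nuclei. No chance rate can therefore be set beside the 9. In astrocyte-like nuclei AiE0401h was far above the other 8 vectors for Cdh8 (79.6 CPM, next 14.1), Cdh9 (32.9 CPM, next 0), Cdh7 (21.2 CPM, next 4.73), Cdh18 (8.49 CPM, next 0) and Pcdh15 (5.31 CPM, next 0), and AiE0450h for Cdh12 (89.7 CPM, next 43.5). In the neuronal nuclei of the same comparison AiE0445h_3xC2 was far above for Cdh9 (215 CPM, next 127). Vector AiE0390m was far above for Cdh10 in Lamp5-like nuclei (671 CPM, next 102), and AiE0140h for Cdh11 in oligodendrocyte-like nuclei (464 CPM, next 182).

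The 102 nuclei under the minimum of 1000 genes entered no comparison. Pcdhga12 had a read in 97.1% of them, Pcdh9 in 48.0% and Cdh6 in 37.3%.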

How the results depend on the processing

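The number of members called moved with the setting. Shares of all genes called are given above for the main setting, DESeq2 and the astrocyte-like against oligodendrocyte-like fits. For the other settings of this section neither that share nor the number of members tested is given. Those counts therefore describe the setting and show no departure from the other genes. The counts of members with the higher pooled level likewise have no number compared beside them. For GABAergic-like against glutamatergic-like nuclei it was 1, and it was 9 with DESeq2, 4 with no filter on low counts, 2 with classes from a marker score, 2 with a minimum of 500 genes, and 0 with equal numbers of nuclei, within library series S40326, or without runs holding a striatal projection neuron-like nucleus. For striatal projection neuron-like against GABAergic-like nuclei it was 3, and it was 14 with DESeq2, 7 with no filter, 1 with a minimum of 500 genes and 0 within S40326. For astrocyte-like against neuronal nuclei it was 9, and it was 24 with DESeq2, 5 within S40326, 0 within S40324, and 3 without the runs (an alternative added after the data were seen). For Sst-like against Pvalb-like nuclei it was 0, and 5 with DESeq2. Leaving out each vector in turn gave 0 to 2, 2 to 4 and 7 to 9 in the first 3 comparisons and 0 in the others with a paired test. Of astrocyte-like and oligodendrocyte-like nuclei, 12 members had the higher pooled level in the astrocyte-like nuclei of DLX2.0, 26 with a minimum of 500 genes and 35 over unpaired vectors (added after the data were seen); the unpaired test called 1 member, and the paired test over the 3 vectors of the 500-gene setting called 0. All log2 differences of called members kept their sign.

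The vector is the replicate block. With no replicate block the numbers called were 1, 2 and 3 in the first 3 comparisons and 0 for kinds, layers and striatal types.

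The difference in clustered genes per nucleus between astrocyte-like and neuronal nuclei was -0.957 without Pcdhga12 (added after the data were seen). Leaving out each vector gave -1.36 to -0.984 there, 0.213 to 0.636 for GABAergic-like against glutamatergic-like, and -0.337 to 0.0405 for striatal projection neuron-like against GABAergic-like nuclei, where the value changed sign without AiE0140h (0.0405, adjusted p = 0.874, exact permutation test). The cause of these changes was not tested. Too few vectors remained for S40324 alone in the neuronal comparisons and for layers without the runs. With 9 to 12 vectors and 3 to 35 nuclei per sum, most clustered genes were too sparse to test.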
